A study of Mus musculus with 18 samples.

Results

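The genes of cholesterol and fatty acid synthesis were followed in mouse duodenal epithelium with and without the transcriptional co-repressor MTGR1. The set holds 31 genes, named by symbol from the known pathways, with no value used by the rule: 18 enzymes of sterol synthesis, 6 genes of the SREBP control circuit and 7 genes of fatty acid synthesis. The choice of the set was nevertheless made with earlier results of these data known. All 31 were listed at each of the 3 time points, among 16414 genes listed at all of them, and all 31 passed the minimum mean for testing at each time. RNA was sequenced from 3 WT (Mtgr1+/+) and 3 Mtgr1 null (Mtgr1-/-) mice, the latter lacking the gene in the whole body and not only in the epithelium. Each mouse gave 1 library of fresh crypts (D0), 1 of enteroids 24 h after plating (D1) and 1 of enteroids 72 h after plating (D3), which makes 18 libraries in 6 groups of 3. Enteroids are small epithelial structures that grow from plated crypts in Matrigel, and here they were started from mice 8 to 12 weeks old. As the same mice supplied all 3 times, D3 is not an independent repeat of D1.

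Cells build cholesterol from acetyl-CoA through mevalonate, squalene and lanosterol, and they build saturated and monounsaturated fatty acids from the same acetyl-CoA pool. Both pathways are switched on by the SREBP transcription factors, which sit in the endoplasmic reticulum bound to the escort SCAP and are held there by INSIG proteins while sterols are plentiful. When sterols fall, SCAP carries SREBP to the Golgi, where it is cut and released to the nucleus, and the INSIG1 gene is itself a target, which closes the loop. The small intestine both absorbs cholesterol and makes it.

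The promoters of 5 of these genes are shown because SREBP commonly acts together with the factor NF-Y at its targets, and because the 5 span what was measured: the HMG-CoA synthase gene Hmgcs1, the late sterol desaturase gene Sc5d, the feedback gene Insig1, the fatty acid synthase gene Fasn, which was not called at D1, and the elongase gene Elovl6, which rose there. They were chosen after the values were seen. Each line gives up to 250 bases before the RefSeq start (GRCm38.p6), 5′ to 3′ on the gene's strand, stopped where the gene model used for counting begins. Capitals mark a sterol regulatory element (TCACNCCAC), an NF-Y box (CCAAT) or an E-box (CACGTG) on either strand, so that ATTGG is CCAAT on the opposite strand.
Hmgcs1, chr13:119690101-119690350, plus strand: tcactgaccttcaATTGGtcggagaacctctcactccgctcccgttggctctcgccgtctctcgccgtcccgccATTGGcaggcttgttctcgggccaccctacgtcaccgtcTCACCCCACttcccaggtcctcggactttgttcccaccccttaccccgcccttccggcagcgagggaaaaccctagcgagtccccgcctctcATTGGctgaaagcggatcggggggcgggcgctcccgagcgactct
Sc5d, chr9:42264301-42264550, minus strand: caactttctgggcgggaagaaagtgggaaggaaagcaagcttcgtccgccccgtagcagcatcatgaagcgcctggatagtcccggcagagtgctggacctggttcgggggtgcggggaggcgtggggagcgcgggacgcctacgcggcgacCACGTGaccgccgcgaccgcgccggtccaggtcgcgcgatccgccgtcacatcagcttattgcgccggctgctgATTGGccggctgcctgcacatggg
Insig1, chr5:28071162-28071362, plus strand: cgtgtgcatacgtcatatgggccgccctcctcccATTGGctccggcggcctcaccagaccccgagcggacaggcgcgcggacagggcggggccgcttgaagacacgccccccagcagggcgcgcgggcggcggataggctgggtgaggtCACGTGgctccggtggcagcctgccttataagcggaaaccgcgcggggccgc
Fasn, chr11:120824548-120824797, minus strand: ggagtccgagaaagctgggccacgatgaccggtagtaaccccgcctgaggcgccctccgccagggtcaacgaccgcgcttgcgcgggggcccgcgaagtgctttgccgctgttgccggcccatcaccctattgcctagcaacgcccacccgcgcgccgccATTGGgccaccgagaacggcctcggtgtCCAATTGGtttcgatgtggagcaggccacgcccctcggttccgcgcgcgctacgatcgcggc
Elovl6, chr3:129532136-129532354, plus strand: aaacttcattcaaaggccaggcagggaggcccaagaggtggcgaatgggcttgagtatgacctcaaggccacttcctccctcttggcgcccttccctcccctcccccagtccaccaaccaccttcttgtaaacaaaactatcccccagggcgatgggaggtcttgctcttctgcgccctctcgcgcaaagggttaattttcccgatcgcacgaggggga
Of the 31 genes, 25 had a RefSeq window reaching from 250 bases before to 50 bases after a start. The NF-Y box was in a window of 21 of these 25 (84.0%), against 43.5% of the 10011 genes with a window that were tested at D1. A gene counted if any of its windows matched. Counted by window, the box was in 22 of 34 windows of these genes (64.7%), against 37.4% of all 32851 windows. By group it was in 14 of 15 sterol genes, 4 of 5 control genes and 3 of 5 fatty acid genes. The strict sterol regulatory element was in 1 of 25, Hmgcs1, where it lies 137 to 129 bases before the start, against 1.35% of the tested genes. The E-box was in 5 of 25 (Dhcr7, Hsd17b7, Insig1, Sc5d and Scap), against 11.7% of the tested genes. In Fasn an NF-Y box on each strand overlaps the other to give CCAATTGG, and in Elovl6 no letters matched. These are matches of letters, with no measure of binding.

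In the 16 libraries whose read numbers could be recovered from the steps of the values, 22035316 to 28621990 reads lay on genes. Mtgr1 itself, listed as Cbfa2t2 (ENSMUSG00000038533.15), was not called lower in the libraries labelled Mtgr1 null: crypts had 614, 523 and 595 normalized counts in WT and 697, 466 and 534 in null, and the log2 fold change was -0.05 in crypts, 0.37 at D1 and 0.06 at D3 (adjusted p = 0.917, 0.0557 and 0.686, limma). A gene-level count cannot show whether a mutant transcript is still read, so the genotype rests on the labels. The 6 epithelial markers summed to 139405 or more normalized counts in each library, and at D1 and D3 stromal, muscle and endothelial markers summed to 9.4 to 33.1 normalized counts per library. WT crypt library 3 stood apart and bears on every crypt value below. It was the lowest of the 6 crypt libraries for 27 of the 31 genes, including all 18 sterol genes, whose median level was 0.403 times the mean of the other WT crypts. The same library held 21452 normalized counts summed over 10 immune markers, against 2848 and 5485 in the other WT crypts and 860 to 2930 in the null crypts, and for Ptprc, the pan-leukocyte marker, 3795 against 408 and 377. Whether immune cells or their RNA had a part in the low sterol values of this library was not tested.

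**Figure D1:**
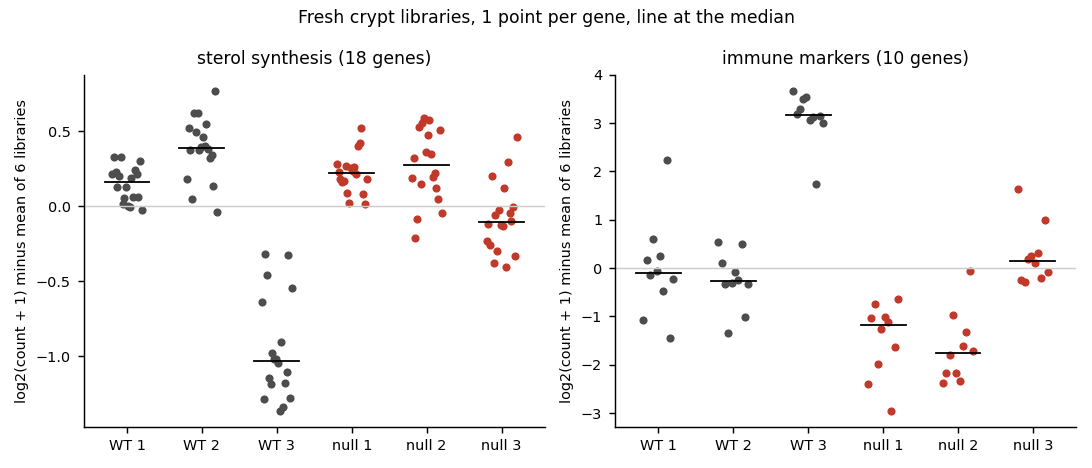
Fresh crypt libraries. Left, the 18 sterol genes, and right, the 10 immune markers, each as log2(normalized count + 1) minus its mean over the 6 libraries, with 1 point per gene and a line at the median. WT library 3 is lowest for all 18 sterol genes and holds the most immune marker RNA (21452 summed normalized counts).

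In fresh crypts no gene of the set passed the test in either direction (0 of 31), while 4.73% of the 12980 genes tested did (1.58% higher and 3.15% lower in null). The count at an unadjusted p under 0.05 was 2, edgeR on recovered reads, which lacked WT crypt library 2, also called 0, and DESeq2 on the same reads called 2, Me1 and Elovl6, both higher in null. The median log2 fold change (null minus WT) of the 31 genes was 0.24, against 0.01 for all genes, and 28 of 31 were positive. Without WT crypt library 3 the median was -0.06 and 12 were positive, so the direction of the crypt median rested on 1 library. Hmgcs1, the cytosolic HMG-CoA synthase, had 7919, 12053 and 3983 normalized counts in WT crypts and 8329, 11525 and 6385 in null crypts, and the groups overlapped (log2 fold change 0.23 ± 0.41 (SE, n = 3), and -0.20 without WT crypt library 3).

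The sterol enzymes followed through culture all overlapped between the genotypes in crypts. Mvk had 608, 756 and 229 normalized counts in WT and 768, 665 and 715 in null, and Pmvk had 793, 865 and 317 in WT and 980, 742 and 639 in null. Msmo1 had 3147, 4158 and 1225 in WT and 3783, 4699 and 3421 in null, with a log2 fold change of 0.64 ± 0.42 (SE, n = 3). Hsd17b7 had 1110, 1390 and 528 in WT and 1085, 1608 and 1052 in null. In these 4 genes WT library 3 held the lowest value and the other WT libraries lay within or close to the null range. Ebp had 2161, 2047 and 1439 in WT and 2217, 1864 and 2272 in null, and Sc5d had 3179, 3343 and 2432 in WT and 3230, 3151 and 3039 in null.

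The control genes overlapped as well. Srebf2 had 4691, 5317 and 3844 in WT crypts and 4812, 6011 and 5513 in null crypts. Srebf1 had 1477, 1651 and 2257 in WT and 1779, 1804 and 1791 in null, and here WT library 3 was the highest of the 6. Insig1 had 3221, 4897 and 1966 in WT and 3886, 3653 and 3274 in null, and Insig2 had 829, 796 and 593 in WT and 814, 812 and 836 in null.

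Malic enzyme, Me1, which makes NADPH for fatty acid synthesis, was the gene furthest apart in crypts. Its values were 803, 791 and 580 normalized counts in WT and 7276, 1475 and 4222 in null, so all null crypts lay above all WT crypts. The log2 fold change, taken throughout on log2(normalized count + 1), which understates the change of low genes, was 2.31 ± 0.53 (SE, n = 3), with an adjusted p of 0.0609 (limma) that missed the threshold and ranged from 0.0043 to 0.186 over 13 alternatives. It passed with DESeq2 on recovered reads (adjusted p = 0.0157), with library-total scaling and without null crypt library 2 (log2 fold change 2.95). Elovl6, which lengthens palmitate to stearate, was also separate, at 8171, 9376 and 6035 in WT and 12322, 10426 and 9835 in null (log2 fold change 0.48 ± 0.18 (SE, n = 3), adjusted p = 0.211, limma, and 0.0216, DESeq2). These were the 2 of 31 genes whose groups did not overlap in crypts, against 25.5% of all genes.

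**Figure D2:**
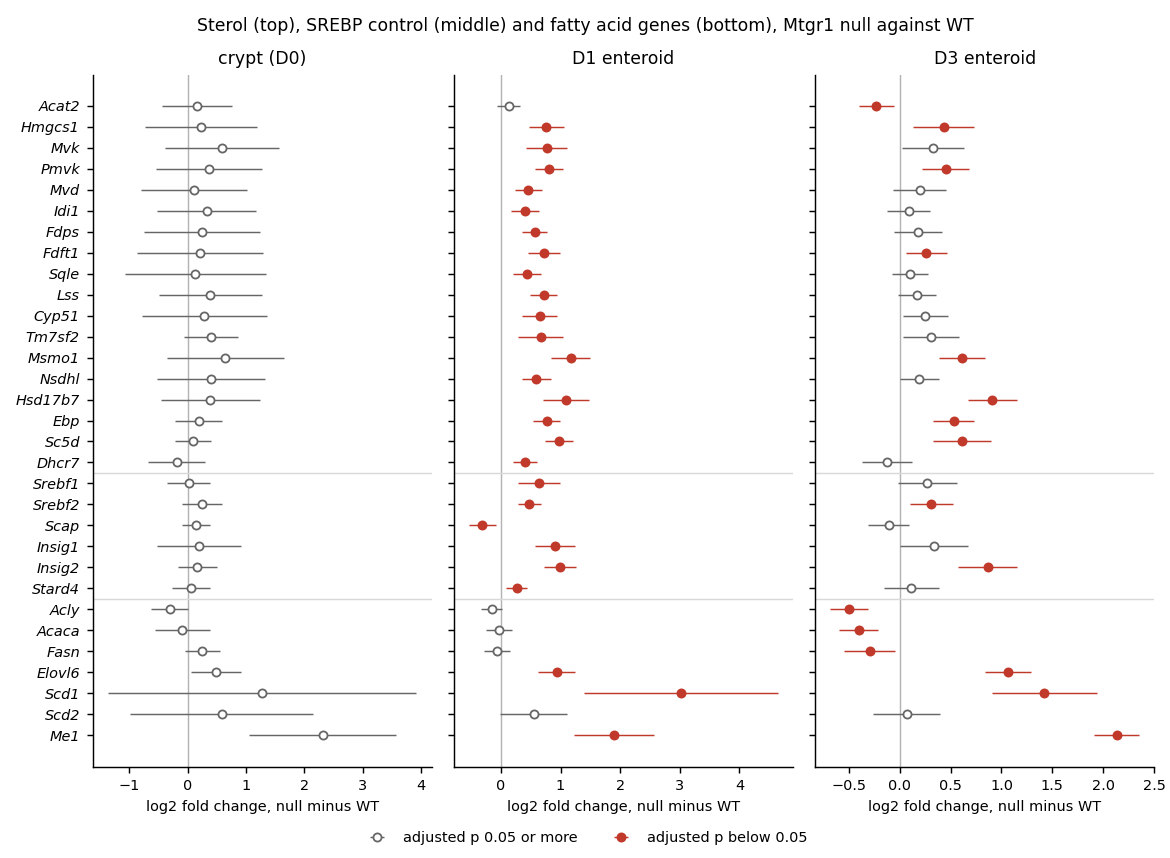
Log2 fold change of each of the 31 genes (null minus WT, x axis, with its own range in each panel) in crypts, D1 enteroids and D3 enteroids, with 95% intervals from limma, filled where the adjusted p is below 0.05. Of 31 genes, 0 are filled in crypts, 26 at D1 (25 to the right, 1 to the left) and 16 at D3 (12 to the right, 4 to the left). If libraries are scaled to their totals, 17 rise and 4 fall at D1 and 9 rise and 6 fall at D3.

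At D1 most of the set rose in null enteroids: 25 of 31 genes were higher and 1 was lower, where 58.9% of the 12587 genes tested were called, 30.0% higher and 28.9% lower. The median log2 fold change was 0.65, against -0.01 for all genes. Of the 31, 26 had all null libraries above all WT libraries and 2 had all below, against 34.2% and 33.9% of all genes. Division by library totals in place of the deposited scaling moved the median of all genes to -0.33 at D1 and -0.20 at D3. Under it all genes split into 2206 higher and 5588 lower at D1, against 3776 and 3637, and 17 of the 31 rose and 4 fell (Scap, Acly, Acaca and Fasn), with a median of 0.33. This scaling was added after the data had been seen. In bulk RNA, a change in the share of a cell type and a change in RNA per cell cannot be told apart.

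The sterol pathway rose nearly from end to end at D1. Of its 18 genes 17 rose, with log2 fold changes from 0.40 (Dhcr7, the last reductase of the pathway) to 1.17 (Msmo1), and their median was 0.69. The exception was Acat2, which condenses acetyl-CoA at the very start, at 4646, 4127 and 4242 normalized counts in WT and 4733, 4920 and 4594 in null (0.13 ± 0.08 (SE, n = 3), adjusted p = 0.198, limma). Acat2 shares sequence with the neighbouring Acat3, which was listed at 8.38 to 59.5 at D1, and summing the pair gave the same call.

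Hmgcs1 (chr13:119690379-119708260, ENSMUSG00000093930.2) had 15656, 12955 and 16084 normalized counts in WT and 27634, 22662 and 25167 in null at D1. The lowest null library was well above the highest WT library, and the log2 fold change was 0.76 ± 0.13 (SE, n = 3, adjusted p = 0.00179, limma). The next kinases of the mevalonate arm rose as well. Mvk, mevalonate kinase, had 1070, 1141 and 1343 in WT and 1810, 1804 and 2468 in null (0.77 ± 0.15, adjusted p = 0.00323, limma). Pmvk, phosphomevalonate kinase, had 1589, 1551 and 1636 in WT and 2882, 2447 and 3076 in null (0.81 ± 0.10, adjusted p = 0.000562, limma). The rest of the arm up to squalene, Mvd, Idi1, Fdps and Fdft1, rose by log2 fold changes of 0.41 to 0.72, of which Mvd and Idi1 lost their calls when libraries were scaled to totals.

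The 3 sterol genes with the largest rises, Msmo1, Hsd17b7 and Sc5d, act after lanosterol, in the steps that strip its methyl groups and move its double bonds. Msmo1 (chr8:64718139-64733792, ENSMUSG00000031604.10), the sterol C4-methyl oxidase, whose promoter window held 3 NF-Y boxes, had 7298, 5694 and 7381 in WT and 16733, 13027 and 15993 in null at D1. Every null library was above every WT library, with a log2 fold change of 1.17 ± 0.14 (SE, n = 3, adjusted p = 0.000504, limma). Hsd17b7 (chr1:169949535-169969241), the 3-keto reductase of the same demethylation, had 2051, 1613 and 2337 in WT and 4844, 3471 and 4487 in null (1.10 ± 0.17, adjusted p = 0.00125, limma). Its partner in that complex, Nsdhl, rose by 0.60.

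Ebp and Sc5d, the isomerase and desaturase that follow, rose too. Ebp had 1945, 1880 and 1626 in WT and 3220, 2860 and 3197 in null (0.77 ± 0.10, adjusted p = 0.000611, limma), and Sc5d had 3833, 3288 and 3226 in WT and 7416, 6318 and 6603 in null (0.98 ± 0.10, adjusted p = 0.000308, limma). The groups did not overlap for either gene. The remaining enzymes after squalene, Sqle, Lss, Cyp51 and Tm7sf2, rose by 0.44 to 0.72, of which Sqle, Tm7sf2 and the final reductase Dhcr7 were no longer called when scaled to library totals.

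**Figure D3:**
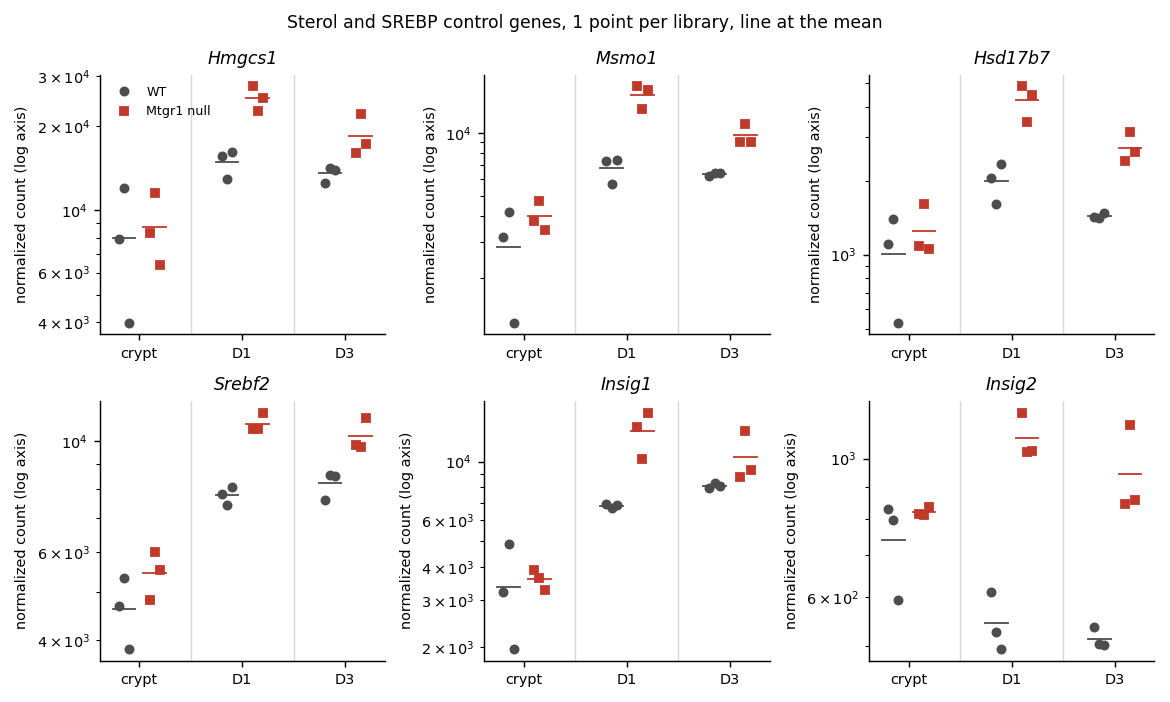
Normalized counts (log axis) of 3 sterol enzymes and 3 control genes in each library, WT as circles and Mtgr1 null as squares, with a line at the group mean. The time points were normalized separately, so levels are compared within a time point. At D1 all 3 null libraries lie above all 3 WT libraries for all 6 genes, as for Msmo1 with 13027 to 16733 against 5694 to 7381.

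In the control circuit, 5 of 6 genes rose at D1 and 1 fell. Srebf2, which encodes the SREBP that mainly drives sterol genes, had 7831, 7433 and 8093 normalized counts in WT and 10560, 10532 and 11380 in null (0.48 ± 0.08 (SE, n = 3), adjusted p = 0.0022, limma). Srebf1, whose products mainly drive fatty acid genes, had 3807, 4366 and 3146 in WT and 5896, 4958 and 6790 in null (0.64 ± 0.15, adjusted p = 0.00831, limma). Both lost the call when scaled to library totals, with adjusted p-values of 0.137 and 0.0732 in limma.

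The 2 genes whose proteins hold SREBP back rose further. Insig1 (chr5:28071363-28078662) had 6919, 6699 and 6863 in WT and 13498, 10240 and 15304 in null (0.91 ± 0.14, adjusted p = 0.00142, limma). Insig2, which in liver is not an SREBP target in the way Insig1 is, had 611, 528 and 495 in WT and 1185, 1026 and 1030 in null (0.99 ± 0.12, adjusted p = 0.00043, limma). The null values of both genes were all above the WT values.

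Scap, the escort, was the gene of the set that fell at D1. It had 1671, 1813 and 1885 in WT and 1320, 1566 and 1450 in null (-0.31 ± 0.10, adjusted p = 0.024, limma), and the call was lost without WT library 2, WT library 3 or null library 1 (adjusted p up to 0.0881, limma). Stard4, a cytosolic sterol carrier, rose by 0.27 ± 0.08 with the same 3 dependencies, and turned to -0.05 when scaled to library totals.

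The fatty acid genes divided. The 3 enzymes that make palmitate were not called at D1: Acly, which supplies cytosolic acetyl-CoA, had a log2 fold change of -0.15, Acaca, the carboxylase, -0.03, and Fasn, the synthase, -0.06 (adjusted p = 0.116, 0.779 and 0.583, limma). Acly had 6040, 5644 and 5795 in WT and 5242, 5381 and 5093 in null, so all null libraries lay below all WT libraries. Fasn had 8066, 8821 and 7954 in WT and 7591, 8719 and 7485 in null, which overlap. When scaled to library totals all 3 were called lower, at -0.47, -0.35 and -0.38, close to the median of all genes under that scaling. Elovl6, which acts on palmitate, had 8910, 7375 and 9612 in WT and 18250, 14417 and 16702 in null (0.93 ± 0.13, adjusted p = 0.000946, limma).

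Scd1, the stearoyl-CoA desaturase, had the largest rise of the 31, from a low and uneven WT level. It had 511, 1730 and 233 in WT and 7931, 2526 and 5505 in null (3.02 ± 0.70, adjusted p = 0.00731, limma), and null library 2 was nearest to the WT values. The log2 fold change was 2.35 without WT library 3 and 3.79 without WT library 2, and was called in each alternative. The related Scd2 had 37578, 43917 and 22220 in WT and 50319, 50015 and 45438 in null (0.55 ± 0.24). Its adjusted p was 0.0841 in limma, 0.0378 with the mouse number as a replicate block, 0.0416 with DESeq2 and 0.0361 without WT library 2 (limma). In the other 10 of 13 alternatives Scd2 stayed uncalled. Its log2 fold change ran from 0.23 to 0.75 over the alternatives. Me1 had 6724, 4523 and 4616 in WT and 30284, 13478 and 18050 in null (1.90 ± 0.29, adjusted p = 0.0012, limma).

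**Figure D4:**
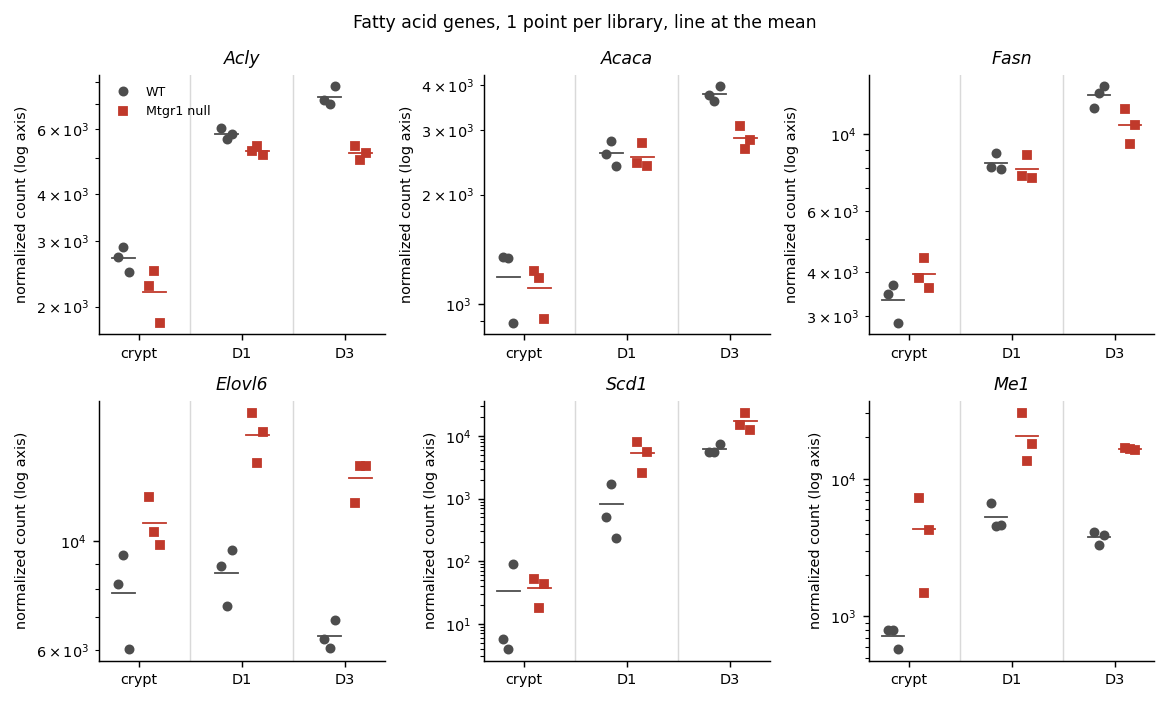
Normalized counts (log axis) of 6 fatty acid genes in each library, WT as circles and Mtgr1 null as squares, with a line at the group mean. The time points were normalized separately, so levels are compared within a time point. At D3 Acly, Acaca and Fasn lie lower in null, while Elovl6, Scd1 and Me1 lie higher, as for Me1 with 16227 to 16687 against 3311 to 4104.

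At D3 fewer of the genes stood apart: 12 of 31 were higher and 4 lower, where 59.0% of the 12782 genes tested were called, 29.9% higher and 29.1% lower. In 18 of the 31 all null libraries were above all WT libraries and in 4 all were below, against 34.6% and 34.2% of all genes. The 12 were all among the 25 of D1. The median log2 fold change was 0.26, against 0.00 for all genes, and in all 18 sterol genes the value was smaller than at D1. Of the sterol genes 7 rose (Hmgcs1, Pmvk, Fdft1, Msmo1, Hsd17b7, Ebp and Sc5d), and Acat2 fell. The number of members that rose ran from 9 to 18 over the alternatives, with 18 when null library 1 was left out. Hmgcs1 lost the call without WT library 1 or 3 (adjusted p = 0.0781 and 0.0514, limma), Fdft1 without WT library 1 or 3 or null library 2 or 3 and with edgeR (adjusted p = 0.0756), and Acat2 without WT library 2 or 3 or null library 1 or 3. The edgeR fit at D3 also lacked null library 2. Scaled to library totals, Hmgcs1 and Fdft1 were not called (0.23 and 0.06, adjusted p = 0.0704 and 0.483, limma).

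Hsd17b7 had 1429, 1410 and 1483 in WT and 2413, 3151 and 2609 in null at D3 (0.91 ± 0.11 (SE, n = 3), adjusted p = 0.000255, limma), the largest rise of a sterol gene at this time. Msmo1 had 6211, 6396 and 6390 in WT and 9035, 11048 and 9077 in null (0.61 ± 0.10, adjusted p = 0.00113, limma). Neither gene overlapped between the groups. Sc5d had 3778, 3653 and 3544 in WT and 5176, 6870 and 4945 in null (0.62 ± 0.12, adjusted p = 0.00358, limma). Ebp had 1793, 2008 and 2034 in WT and 2840, 2999 and 2606 in null (0.53 ± 0.09, adjusted p = 0.00137, limma).

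In the mevalonate arm the difference was smaller at D3. Hmgcs1 had 12520, 14135 and 13949 in WT and 16013, 22053 and 17259 in null (0.43 ± 0.13, adjusted p = 0.0205, limma). Pmvk had 1514, 1716 and 1828 in WT and 2163, 2545 and 2201 in null (0.45 ± 0.10, adjusted p = 0.00586, limma). Mvk was separate, at 1021, 1368 and 1395 against 1418, 1653 and 1637, but missed the threshold (0.33 ± 0.13, adjusted p = 0.0643, limma), which it passed without null library 1 (adjusted p = 0.0423, limma).

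Of the control genes Srebf2 and Insig2 rose at D3. Srebf2 had 7608, 8561 and 8524 in WT and 9816, 9713 and 11101 in null (0.31 ± 0.09, adjusted p = 0.0189, limma), and lost the call without WT library 1 or null library 3 and when scaled to library totals (0.11, adjusted p = 0.354, limma). Insig2 had 538, 504 and 502 in WT and 847, 1130 and 859 in null (0.86 ± 0.13, adjusted p = 0.000781, limma), with no overlap. Insig1 had 7924, 8312 and 8064 in WT and 8736, 13073 and 9332 in null (0.33 ± 0.15, adjusted p = 0.0775, limma). Srebf1 had 3810, 4694 and 4972 in WT and 4726, 5904 and 5610 in null, which overlap (0.27 ± 0.13, adjusted p = 0.0928, limma). Insig1 and Srebf1 both passed without null library 1 (adjusted p = 0.0263 and 0.0335, limma).

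Of the 7 fatty acid genes 3 rose and 3 fell at D3, against 29.9% and 29.1% of all genes. Acly had 7153, 6983 and 7803 in WT and 5414, 4949 and 5169 in null (-0.50 ± 0.08, adjusted p = 0.00121, limma). Acaca had 3762, 3617 and 3965 in WT and 3092, 2666 and 2818 in null (-0.40 ± 0.08, adjusted p = 0.00376, limma). In both genes the highest null library was under the lowest WT library. Fasn had 11920, 13173 and 13729 in WT and 11844, 9348 and 10602 in null (-0.29 ± 0.11, adjusted p = 0.047, limma), with highest null and lowest WT libraries almost touching. The Fasn call was lost in 9 of 13 alternatives, edgeR and DESeq2 among them. Both of these lacked null library 2 at D3, and limma without that library lost the call as well.

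Elovl6, Scd1 and Me1 were the 3 fatty acid genes that rose at D3, and Scd2 was not called. Elovl6 had 6316, 6062 and 6902 in WT and 11965, 14228 and 14189 in null (1.06 ± 0.10, adjusted p = 9.25e-05, limma). Scd1 had 5577, 5661 and 7441 in WT and 15009, 23677 and 12686 in null (1.42 ± 0.22, adjusted p = 0.00111, limma). Me1 had 4104, 3311 and 3898 in WT and 16687, 16486 and 16227 in null (2.13 ± 0.10, adjusted p = 6.17e-06, limma), and the null libraries were nearly identical. Scd2 had 53658, 50843 and 59335 in WT and 53569, 67563 and 51370 in null, which overlap (0.07 ± 0.14, adjusted p = 0.707, limma).

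Whether the genotype difference itself changed with culture was tested over the 18 libraries together, allowing for libraries of 1 mouse to be alike. The correlation estimated within a mouse was -0.0048, and the fit without it called the same number of the 31 genes for each pair of times. From crypts to D1 the genotype difference changed in 6 of 31 genes, against 41.4% of the 12145 genes tested. It grew for Sc5d (by 0.89 ± 0.18 on the log2 scale, adjusted p = 0.00255, limma), Insig2 (0.82 ± 0.19, adjusted p = 0.00414, limma), Srebf1, Dhcr7 and Ebp, and went down for Scap (-0.46 ± 0.13, adjusted p = 0.0122, limma). The count rests on single mice. Without WT mouse 3 it was 19 of 31, against 29.9% of all genes, without WT mouse 2 it was 3 and without null mouse 3 it was 2. The calls of Sc5d and Insig2 held in each alternative run.

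From crypts to D3 the difference changed in 4 of 31 genes, against 31.6% of all genes. It grew for Insig2 (0.70 ± 0.19, adjusted p = 0.0138, limma), Sc5d (0.53 ± 0.18, adjusted p = 0.0378, limma) and Elovl6 (0.58 ± 0.21, adjusted p = 0.0491, limma), and went down for Fasn (-0.54 ± 0.16, adjusted p = 0.02, limma). The count was 1 without WT mouse 1, WT mouse 2 or null mouse 2, and 2 without null mouse 3. Without WT mouse 3 it was 5, against 16.6% of all genes, and Fasn was no longer called. From D1 to D3 it changed in 0 of 31 genes by limma, against 0.0329% of all genes, and no other tool was run. This fit took a single spread per gene from all libraries, the uneven crypts included, although the contrast itself uses enteroids only. For Lss its standard error was 0.36, where the fits at D1 and at D3 alone had 0.10 and 0.08. The 0 therefore cannot show that the differences stayed the same. Without null mouse 2, 879 of all genes were called and still 0 of the 31. At an unadjusted p under 0.05 there were 2, Dhcr7 (-0.52) and Acly (-0.34). The smaller values at D3 than at D1 are therefore a description.

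Culture itself came with a higher share of these RNAs in both genotypes. Levels are given here in CPM, each normalized count scaled to the sum of its library, and are not tested because each time point was normalized on its own. Such shares also move when other genes change. Summed over the 18 sterol genes, WT libraries held 1773, 2164 and 809 CPM in crypts, 3783, 3493 and 3899 at D1 and 3788, 4036 and 4026 at D3. Null libraries held 1905, 2157 and 1367 in crypts, 4793, 4849 and 4612 at D1 and 4021, 4320 and 4055 at D3. All enteroid sums were above all crypt sums, the genotypes were separate at D1, and at D3 they met.

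**Figure D5:**
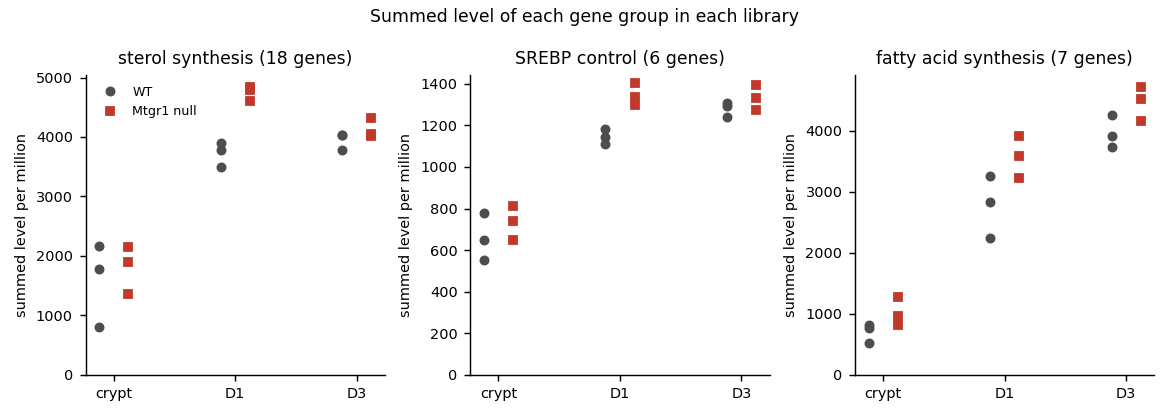
Summed level (CPM, y axis) of the sterol (18), SREBP control (6) and fatty acid (7) genes in each library, WT as circles and Mtgr1 null as squares. All enteroid libraries lie above all crypt libraries in each panel, and for the sterol genes the genotypes are apart at D1 (3493 to 3899 against 4612 to 4849).

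Gene by gene, 28 of 31 were higher in CPM in all WT D1 enteroids than in all WT crypts and 0 lower, where 46.1% of all genes were higher and 19.3% lower. In null mice it was 29 of 31 and 0, against 15.3% and 23.3%. The median ratio of D1 to crypts was 1.25 on the log2 scale in WT and 1.34 in null, against 0.22 and -0.15 for all genes. Without WT crypt library 3, left out after the data had been seen, 28 were higher and 1 lower in WT, against 52.1% and 23.7% of all genes, with a median of 1.03 against 0.25. The desaturases moved most. Scd1 was near the floor in crypts, at 5.75, 3.96 and 90.9 normalized counts in WT and 51.8, 18.1 and 42.7 in null, and in WT it was at 0.229, 0.156 and 3.52 CPM in crypts, 9.86 to 75.4 at D1 and 236 to 307 at D3. The crypt mean is set by library 3, so no single fold is given. Scd2 was at 108, 113 and 21.5 CPM in WT crypts and 2116 to 2450 at D3, 28.2 times higher on the means and 20.6 times without WT crypt library 3. At the other end Ebp, Elovl6 and Insig2 overlapped between WT crypts and D1 enteroids, with ratios of 1.03, 1.17 and 0.784.

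From D1 to D3 fewer genes separated. In WT, 13 of 31 were higher in CPM in all D3 than in all D1 libraries and 3 were lower, against 25.3% and 17.5% of all genes. In null, 4 were higher and 10 lower, against 20.7% and 8.23%. Of those 10, 9 were sterol genes. Neither these changes within a genotype nor the difference between the counts was tested. The fit per gene given above was of the genotype difference and not of change within a genotype. It called no gene of the set from D1 to D3, which cannot show that the genotype difference stayed the same.

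Other genes of lipid metabolism are set beside the same shares of all genes, 30.0% higher and 28.9% lower at D1 and 29.9% and 29.1% at D3. Of 6 other sterol synthesis genes tested at D1, 4 rose and 1 fell. Por, the electron donor of Cyp51 and Sqle, rose by 1.55 ± 0.18 (SE, n = 3), Cyb5r3, whose electrons reach Msmo1 and Sc5d through cytochrome b5, by 1.3 ± 0.14, and Erg28 by 0.48 ± 0.10, while Lbr, which carries a C14 reductase activity beside Tm7sf2, fell by 1.22 on the log2 scale. At D3 Por, Cyb5r3 and Erg28 rose (1.53, 1.08 and 0.26) and Lbr fell by 1.05. Of 11 further control genes 6 rose and 1 fell at D1. Nr1h3, which encodes the oxysterol sensor LXRα, rose by 0.96, Erlin2 by 0.61 and Nr1h2 by 0.47, and Rnf145, an E3 ligase, fell by 0.77.

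Of 20 genes that move, store or take up sterol, 19 were tested at D1 and 19 at D3. Among those tested 10 rose and 3 fell at D1, and 11 rose and 5 fell at D3. Lipa, the lysosomal lipase that frees cholesterol from lipoprotein, rose by 2.42 ± 0.20 at D1 and 3.26 ± 0.19 at D3. Gramd1b, an ER protein that draws cholesterol from the plasma membrane, rose by 2.20 and 1.55. The LXR target Abca1, a cholesterol exporter, rose by 1.91 at D1, and Abcg8, a subunit of the apical sterol exporter, by 1.35 at D3. Soat1, which esterifies cholesterol, fell by 1.00 and 1.14, and Gramd1a fell by 2.50 and 3.5. In crypts 1 of 20 was called, Vldlr, a lipoprotein receptor, which fell by 3.35.

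Of 27 other fatty acid genes tested, 11 rose and 8 fell at D1, and 11 rose and 9 fell at D3, the lower counts being near the share of all genes. Idh1, which also makes NADPH, rose by 1.73 ± 0.18 and 1.28 ± 0.13, and Acsl5, an acyl-CoA synthetase, by 1.53 and 1.24. Acsl1 rose by 1.12 at D1, and Acacb, the carboxylase at mitochondria, by 1.34 at D3. The desaturases of polyunsaturated fatty acids went the other way from Scd1: Fads1 fell by 2.09 at D1 and 1.94 at D3, and Fads2 fell by 1.20 and 1.22. Hacd1, a dehydratase of fatty acid elongation, fell by 2.71, 2.15 and 2.16 in crypts, D1 and D3. The other call in crypts was Mlxipl, which encodes the carbohydrate-responsive factor ChREBP and fell by 1.04.

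Cell type markers moved with the genotype at the same times. All 10 enterocyte markers rose at D1 and at D3, with sums of 112339 to 148677 normalized counts in WT and 327151 to 576512 in null at D1, and 78995 to 84358 and 266224 to 441609 at D3. All 7 goblet and Paneth markers tested fell at both times, from sums of 91689 to 107945 to 1640 to 8166 at D1. Of 8 proliferation markers 7 fell at D1 and 8 at D3, from 49452 to 50380 to 20868 to 29581 at D1. Of the 8 enteroendocrine and tuft markers 7 fell at D1 and 8 at D3, and Sst and Neurod1 were under 10 in every null library. The part of these shifts in the lipid gene differences was not tested. In crypts 0 of 10 enterocyte markers and 0 of 8 proliferation markers were called. Of the enterocyte markers 7 were positive and 3 negative there. All null crypts lay above all WT crypts for 2 of them, Anpep (1.56) and Slc15a1 (0.94). Called lower in crypts were 3 of 7 goblet and Paneth markers and 5 of 8 enteroendocrine and tuft markers, all 5 of them enteroendocrine. For all 7 goblet and Paneth markers, however, all null crypts lay below all WT crypts. Their sums were 207872 to 247334 normalized counts in WT crypts and 3367 to 38502 in null crypts. The tuft markers Pou2f3, Dclk1 and Trpm5 were higher in null crypts (1.86, 1.57 and 1.07) but not called.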

How the data were processed

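Bulk RNA-seq of 18 libraries was analysed. Per the submitters' processing notes, reads were trimmed with fastp 0.20.0 and quantified with Salmon 1.3.0, and the authors normalized them with DESeq2 1.26.0. The deposited signal values are gene counts that the authors divided by 1 size factor per library, separately for D0, D1 and D3. The deposited tables also hold the authors' mean signal, log2 fold changes with standard errors, Wald statistics (a score) and p-values, which were not used. Gene IDs matched GENCODE M21 (GRCm38).

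Within each time point, genes averaging 10 or more were fitted by limma 3.58.1 (trend) on log2(normalized count + 1) in R 4.3.3, two-sided, with Benjamini-Hochberg adjustment over all genes tested and a threshold of 0.05. Change of the genotype difference between times was fitted over the 18 libraries together, with a correlation among libraries of 1 mouse (statmod 1.5.0). Whole reads were recovered for 16 libraries (100% of values within 0.01 reads) and tested with edgeR 4.0.16 and DESeq2 1.42.0; the size factors of WT crypt 2 and Mtgr1 null D3 enteroid 2 were too close to 1. An exact permutation test of 3 against 3 cannot go below p = 0.1, and none is reported. The limma genotype fit and the limma fit of change between times were tested on simulated counts. The replicate block within a time point, edgeR and DESeq2 were not. The simulated counts held few changed genes and no outlying library, unlike these data. Same-numbered samples deviated together at D1 (correlations 0.116, 0.231 and 0.216), but not at D3 (-0.007, -0.002 and -0.016), and at D0 gave 0.076, 0.274 and 0.346; the labels do not tie a number to a litter or batch.

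Every library's value is given for the 12 genes with the largest log2 fold changes among those called at D1 or D3, and for Srebf1, Srebf2, Insig1 and Insig2. Values of Scap, Acat2, Acly, Acaca, Fasn and Scd2 were added after they were seen. Of each other lipid list, at most 3 that rose and 3 that fell at a time are named. The 31 genes and the other lists were chosen with earlier results of these data known. Alternatives were another pseudocount, no filter, TMM factors, a replicate block, edgeR, DESeq2 and leaving out each library, and, added after seeing the data, scaling to library totals and WT culture shares without WT crypt library 3.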

Additional observations from a re-analysis of the deposited data

Results flagged for a closer look

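For 10 gene and time pairs the genotype difference itself differed between crypts and enteroids by the interaction test in limma. From crypts to D1 the log2 difference (null minus WT) changed by 0.89 for Sc5d, 0.82 for Insig2, 0.62 for Srebf1, 0.58 for Ebp, 0.58 for Dhcr7 and -0.46 for Scap. From crypts to D3 it changed by 0.70 for Insig2, 0.58 for Elovl6, 0.53 for Sc5d and -0.54 for Fasn. The Sc5d and Insig2 calls at D1 held in all 10 alternatives. The others were lost in some: Ebp in 5 of 10, Dhcr7 in 5, Srebf1 in 4 and Scap in 2 at D1, and Sc5d in 6, Elovl6 in 5, Insig2 in 3 and Fasn in 2 at D3. Scaling to library totals was among these for Ebp, Dhcr7 and Srebf1 at D1 and for Sc5d, Insig2 and Elovl6 at D3. Without WT mouse 3, whose crypt library had the lowest sterol values and the most immune marker RNA, Srebf1 at D1 was 0.32 (adjusted p = 0.221, limma) and Fasn at D3 was -0.39 (adjusted p = 0.108, limma). The part of that library's immune RNA in these values was not tested.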

How the results depend on the processing

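Over 64 single-gene results and 804 alternative values, 712 kept their direction and side of the threshold, 70 lost the call, 15 gained it and 7 reversed. In crypts the number of the 31 genes higher in null was 1 when scaled to library totals, 2 with DESeq2 and 0 to 1 with 1 library left out. At D1 it was 24 to 26, and 17 when scaled to totals, which gave 4 lower in place of 1, while leaving out 1 library gave 0 to 1 lower. At D3 it was 9 to 18, and leaving out 1 library gave 2 to 3 lower. Under that scaling all genes at D3 split into 2755 higher and 5081 lower, against 3826 and 3719. The number whose genotype difference changed was 2 to 19 from D0 to D1 and 1 to 5 from D0 to D3 with 1 mouse left out, and 2 from D0 to D3 when scaled to totals. Values that reversed were Hmgcs1 in crypts (-0.20 to 0.60 with 1 library left out), Scd1 in crypts (-0.37 with edgeR and -0.38 with DESeq2), Acaca at D1 (-0.10 to 0.023 with 1 library left out), and Acat2 (-0.19) and Stard4 (-0.054) at D1 when scaled to totals; the cause was not tested. With the mouse number as a replicate block, 26 genes were higher at D1, and 15 were higher and 3 lower at D3, where Fasn lost its call (adjusted p = 0.0766, limma). Scd2 at D1 and Mvk and Srebf1 at D3 gained one (adjusted p = 0.0378, 0.0215 and 0.0266, limma). No other call changed among the 64 single-gene results, and the further gain at D3 was in a gene outside them. A sum of Idi1 and Idi2 was not run, since Idi2 has no value here.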
